A study of Homo sapiens with 6 samples.

Results

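The genes described here encode collagens, laminins and integrins, without 6 genes that the rule lists under the hemidesmosome. They were taken by name: every gene whose symbol in either RNA table begins like a collagen chain (COL, a number, A), a laminin chain (LAMA, LAMB or LAMC) or an integrin chain (ITGA or ITGB), leaving out COL17A1, COL7A1, LAMB3, ITGB4, ITGA6 and ITGB6. This gave 65 of the 10661 genes with a row in either table, 40 with a row for ME-180 and 57 with a row for SiHa, of which 32 had a row in both. Of the 65, 61 are chains of the families (31 collagens, 8 laminins and 22 integrins), and COL4A3BP, ITGB1BP2, ITGB3BP and ITGBL1 share only the start of the name.

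The RNA libraries came from ME-180 cells labelled as p63 knockdown (shp63), ME-180 control cells (pLKO vector), SiHa cells labelled as p63 overexpression and SiHa cells with a vector. Both are established human cervical carcinoma lines, and the 2 lines were grown in different media. The labels do not give the hairpin, the p63 isoform of the overexpression construct, or how the transduced cells were selected. Each group was 1 library, so there was no spread between replicates and no test of the conditions. Every ratio below compares 2 libraries, and its 95% interval, an exact conditional binomial interval, covers counting error only.

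Collagens are triple helices that form the fibrils, networks and transmembrane linkers of the extracellular matrix. Laminins are trimers of an alpha, a beta and a gamma chain that build the basement membrane, the sheet on which epithelial cells rest. Integrins are receptors made of an alpha and a beta chain that tie cells to these ligands and to the actin cytoskeleton. p63, the product of TP63, is a transcription factor of basal epithelial cells and is known to maintain their adhesion genes.

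The targeted gene and the libraries as a whole set the frame for the values below. TP63 (delta N alpha transcript) had 6 counts in the labelled knockdown library, against 5619 in the ME-180 control, and 179 counts in the SiHa overexpression library, against 7 with the vector. The tables summed to 10046579 counts for the labelled knockdown, 10804272 for the ME-180 control, 13690639 for SiHa overexpression and 14207637 for SiHa vector. Over 7587 genes measured in all 4 libraries, Pearson's r of log2(CPM + 1), where CPM is counts scaled to a total of 1000000, was 0.811 between the labelled knockdown and its control, 0.893 between the labelled knockdown and SiHa vector, and 0.992 between both SiHa libraries. These are correlations across genes within single libraries, and genes are not replicates. The labelled knockdown thus stood further from its own control than from a library of the other line. The 4 squamous markers with a row, of 10 listed, summed to 35.3 CPM in the labelled knockdown, against 71319 CPM in the ME-180 control. The part of this difference between libraries in the results for ME-180 was not tested.

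A missing row is not a zero. Of 76 chain genes that RefSeq names by the same rule, the ME-180 table has rows for 36, the SiHa table for 55, and 15 have none in either, among them COL1A2, COL12A1, COL18A1, LAMA1 and LAMA5. The rows of both tables were thinned by accession number, and whether the tables are complete is not known. RefSeq transcripts with 6-digit numbers from 1500 to 2999 had 232 rows in the ME-180 table and 1166 in the SiHa table. Of the 25 chains with a row in SiHa only, 18 carry a SiHa accession in that range, and they include ITGB1, ITGA2, ITGA3, ITGA5, ITGB5, ITGB8, COL4A1, COL4A2, COL6A1, COL6A2, LAMB1, LAMB2 and LAMC1. The rows still present from number 1500 on were mostly low in ME-180, with a median of 8 counts in the higher library and 6.02% of 2955 transcripts at 100 counts or more, against 63.1% of 1010 transcripts with lower numbers. In SiHa the drop came later, with 410 rows from 2500 to 2999 and 99 from 3000 to 3499. None of the 11 SiHa members with numbers from 3500 on had 100 counts. The main beta chain, the main fibronectin receptor chain and the common laminin beta and gamma chains therefore have no ME-180 value here.

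**Figure D1:**
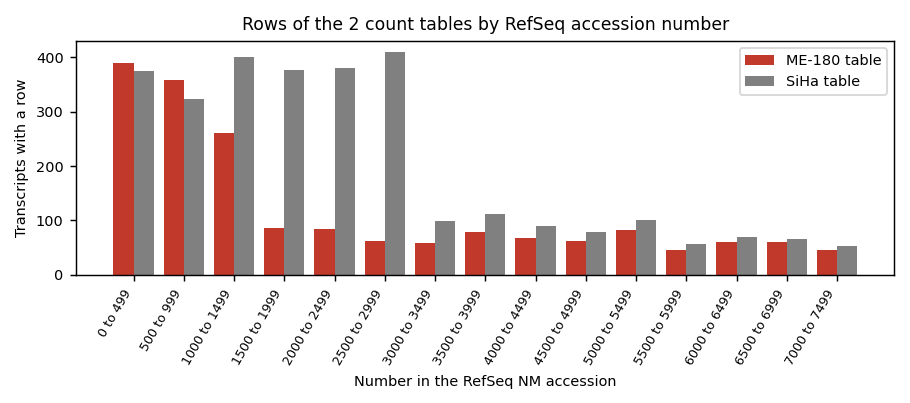
Bars give the number of transcripts with a row in the ME-180 table (red) and the SiHa table (grey), in bands of 500 along the number of the RefSeq accession. The ME-180 bars drop to 86, 84 and 62 rows between 1500 and 2999, where the SiHa bars stand at 376, 380 and 410.

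Promoter sequence is shown for the members with the widest contrasts in ME-180 among those with an entry and at least 100 counts in a library, and for ITGA2B, whose window alone among the members held the p53 family motif. The windows are the 250 bases before a start of the gene in RefSeq (GRCh38.p14), 5′ to 3′ on the strand of the gene. Of the 65 members, 47 had an entry. Capitals mark motifs found on either strand: the p53 family paired core (a pair of core tetranucleotides separated by 6 bases), the E-box CAGGTG bound by ZEB repressors, the AP-1 motif TGANTCA, the TATA motif TATAAA and the GC box GGGCGG. The genes LAMA4 (chr6:112254568-112254817, minus strand) and ITGA4 (chr2:181457136-181457385, plus strand) were higher in the labelled knockdown, as was ITGA2B (chr17:44389650-44389899, minus strand). The genes LAMB4 (chr7:108130362-108130611, minus strand) and LAMA3 (chr18:23872770-23873019, plus strand) were lower.
LAMA4: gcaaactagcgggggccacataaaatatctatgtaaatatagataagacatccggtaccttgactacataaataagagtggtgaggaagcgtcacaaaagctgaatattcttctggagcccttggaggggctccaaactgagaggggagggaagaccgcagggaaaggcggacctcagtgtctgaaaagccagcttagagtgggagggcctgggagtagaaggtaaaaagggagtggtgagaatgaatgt
ITGA4: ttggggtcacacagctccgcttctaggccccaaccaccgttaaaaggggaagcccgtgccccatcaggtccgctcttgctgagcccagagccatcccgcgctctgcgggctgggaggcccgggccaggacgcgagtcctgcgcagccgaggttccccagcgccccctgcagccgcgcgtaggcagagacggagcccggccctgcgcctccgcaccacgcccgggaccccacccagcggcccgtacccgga
ITGA2B: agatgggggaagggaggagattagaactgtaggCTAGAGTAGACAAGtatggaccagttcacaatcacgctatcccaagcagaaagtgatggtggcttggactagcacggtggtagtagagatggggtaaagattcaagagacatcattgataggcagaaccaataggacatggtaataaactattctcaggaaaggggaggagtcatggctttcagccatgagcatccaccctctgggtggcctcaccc
LAMB4: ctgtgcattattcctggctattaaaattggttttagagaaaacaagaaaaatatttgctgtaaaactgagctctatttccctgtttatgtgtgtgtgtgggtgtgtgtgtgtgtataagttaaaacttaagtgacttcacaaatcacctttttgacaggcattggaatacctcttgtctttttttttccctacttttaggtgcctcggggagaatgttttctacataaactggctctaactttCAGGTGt
LAMA3: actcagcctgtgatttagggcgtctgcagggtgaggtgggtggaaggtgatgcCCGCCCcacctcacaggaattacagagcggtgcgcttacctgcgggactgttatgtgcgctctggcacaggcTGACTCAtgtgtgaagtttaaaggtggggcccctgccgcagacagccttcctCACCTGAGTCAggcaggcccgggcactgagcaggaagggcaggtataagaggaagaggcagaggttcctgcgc
The windows of LAMA4 and ITGA4 held none of the 5 motifs. In LAMA3 the E-box, read as its complement, and the second AP-1 motif overlapped. The paired core was found in 4.02% of 35116 promoter windows and in 1 of 47 members, the E-box in 17.5% and in 8 members, the AP-1 motif in 6.57% and in 1, the TATA motif in 10.7% and in 3, and the GC box in 42.6% and in 25. A gene can have more than 1 start, as LAMA3 does, and only 1 window per gene was searched. Whether that window lies at the start of the transcript counted was not checked.

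The knockdown comparison asks which genes differ when p63 is reduced in ME-180. Calls required a 2-fold difference in CPM plus a pseudocount of 1, and at least 1 CPM in either library. In the labelled knockdown 13 of the 40 members were higher and 7 were lower, or 32.5% and 17.5%, against 21.8% and 15.9% of all 8798 genes with a row (37.7% in either direction). The median log2 ratio was 0.18 over all 40 members and 0.14 over all genes. Over the 27 members with at least 1 CPM in a library it was 0.81 (0.67 for the chains alone), against 0.28 for all genes with that level. Over the members with at least 10 CPM it was -0.53, against 0.33 for all genes, so the members' median turned with the level asked for. The values 0.81 and -0.53 are those of ITGB1BP2 and COL4A3BP, which are not chains. Among the 15 members with at least 100 counts in a library, 6 were higher and 7 lower, and all 7 calls among the other 25 were higher. The shares of all genes at these count levels were not taken, so these counts have no background. The 12 members in the thinned accession range count 4 higher (COL19A1, COL21A1, COL24A1 and ITGA9) and 1 lower (LAMB4), where 27.4% of all genes in that range were called in either direction. Scaling by trimmed means (TMM) lowers the log2 ratio of all genes in ME-180 by 0.28, and the members then count 11 higher and 7 lower, without ITGA2B and ITGB3BP. All genes then count 1503 higher and 1653 lower of 8798.

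**Figure D2:**
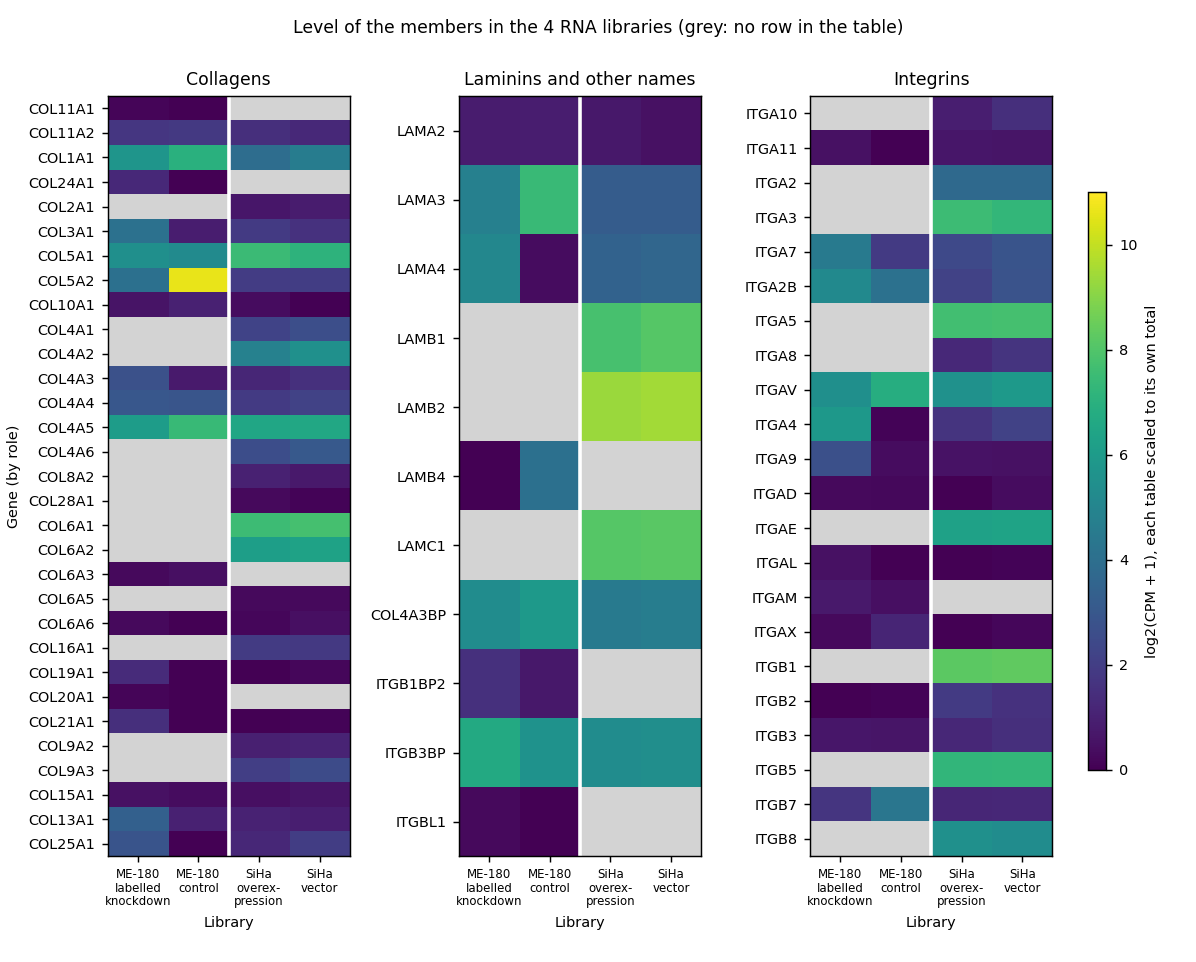
Colour gives log2(CPM + 1) of the members shown (rows, by role) in the labelled knockdown, ME-180 control, SiHa overexpression and SiHa vector libraries (columns), each table scaled to its own total, and grey marks members with no row. COL5A2 stands out in the ME-180 control, at 1579 CPM, against 15.9 CPM in the labelled knockdown, while the SiHa columns resemble each other in every row.

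Among the fibrillar collagens, the chains of 1 collagen did not move together. COL5A2, a chain of the collagen that sets fibril diameter, had 160 counts in the labelled knockdown, against 17062 in the control (15.9 and 1579 CPM), 99.2-fold lower with an interval of 84.9 to 117. COL5A1, its partner in the same trimer, had 436 counts in the labelled knockdown, against 401 in the control, a ratio of log2 0.22 that was not called and was -0.05 under TMM. In SiHa COL5A2 was low in both libraries, at 40 counts with overexpression and 42 with the vector, whereas COL5A1 had 2454 and 1937. The high COL5A2 level was thus seen in the ME-180 control alone among the 4 libraries. COL1A1, the main chain of type I collagen, had 524 counts in the labelled knockdown, against 1373 in the control, 2.44-fold lower (2.20 to 2.70). COL3A1, a fibrillar collagen typical of mesenchymal tissue, had 164 counts, against 9, a ratio of 19.6 (10.1 to 43.6), so the fibrillar chains split in direction. COL3A1 and COL5A2 were both at 28 to 42 counts in the SiHa libraries. COL24A1, a minor fibrillar chain, had 14 counts in the labelled knockdown, against 0 in the control.

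Network collagens also differed within 1 trimer. COL4A5, a type IV chain present in many epithelial basement membranes, had 665 counts in the labelled knockdown, against 1810 in the control, 2.53-fold lower (2.31 to 2.77). COL4A3, which combines with COL4A4 and COL4A5 in the kidney, had 57 counts, against 8, a ratio of 7.66 (3.64 to 18.6). COL4A4 had 70 counts in the labelled knockdown, against 71 in the control, and was not called. The type IV chains thus differed in direction.

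The transmembrane and fibril-associated collagens called among the ME-180 members were all higher. COL17A1, a transmembrane collagen left out by the rule, was lower, with 18 counts, against 34700. COL25A1, a transmembrane collagen known from neurons, had 63 counts in the labelled knockdown, against 0, 22.6-fold higher with the 0 set to a floor of 3 counts (lower 95% limit 17.8). COL13A1, a transmembrane collagen of cell-matrix contacts, had 94 counts, against 11, a ratio of 9.19 (4.91 to 19.0). Its transcripts differed by less than 1 log2 unit, at 1.53 and 2.36. The fibril-associated COL19A1 and COL21A1 had 16 and 18 counts in the labelled knockdown, against 0 each in the control. All of these members were at 43 counts or fewer in both SiHa libraries. The other collagen members with an ME-180 row, COL6A3, COL6A6, COL10A1, COL11A1, COL11A2, COL15A1 and COL20A1, had 28 counts or fewer and were not called. Of the 19 collagen members with a row, 7 were higher and 3 lower, or 36.8% and 15.8%, against 21.8% and 15.9% of all genes.

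Of the laminins, 4 had an ME-180 row, and the 3 above 1 CPM were far apart in the 2 libraries. LAMA3, the alpha chain of the epithelial laminin that anchors hemidesmosomes, had 268 counts in the labelled knockdown, against 1910 in the control (26.7 and 177 CPM), 6.63-fold lower (5.83 to 7.56). Its 3 transcripts lay between log2 -3.11 and -2.68. LAMB3, the beta chain of that laminin and one of the genes left out by the rule, had 0 counts, against 3571. LAMB4, a laminin beta chain of little known function, had 0 counts in the labelled knockdown, against 168 in the control. With the 0 set to the floor of 3 counts it was 52.1-fold lower (lower 95% limit 41.9). LAMA4, the alpha chain of laminins in vessel walls, muscle and mesenchyme, had 331 counts, against 3 (32.9 and 0.278 CPM), a ratio of 119 (40.2 to 578). All 4 LAMA4 transcripts had 3 or fewer counts in the control. LAMA2, the alpha chain of muscle laminin, had 8 and 9 counts. LAMA3 and LAMA4 thus went opposite ways.

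Of the integrin chains, the leading difference was in ITGA4, which binds VCAM1 and fibronectin and is best known from leukocytes. It had 568 counts in the labelled knockdown, against 1 in the control (56.5 and 0.0926 CPM), a ratio of 611 (109 to 24169). ITGB7, one of its 2 beta partners, had 23 counts, against 204, 8.25-fold lower (5.35 to 13.3). The other partner, ITGB1, has no ME-180 row. ITGA9, the close relative of ITGA4, had 55 counts in the labelled knockdown, against 3, a ratio of 19.7 (6.40 to 98.5). The relatives ITGA4 and ITGA9 were both higher, and ITGB7 went the other way.

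The remaining integrin chains fell on both sides. ITGA7, a laminin receptor chain of muscle, had 223 counts in the labelled knockdown, against 29 in the control, a ratio of 8.27 (5.60 to 12.6). ITGAV, the alpha chain of receptors for vitronectin and latent TGF-beta, had 441 counts, against 1234, 2.60-fold lower (2.33 to 2.91), and both of its transcripts were lower. ITGA2B, the platelet fibrinogen receptor chain, had 364 counts, against 175, a ratio of 2.24 (1.86 to 2.69) with a log2 ratio of 0.84 under TMM, which is below the 2-fold rule. Leukocyte chains ITGAD, ITGAL, ITGAM, ITGAX and ITGB2 had 13 counts or fewer in both ME-180 libraries, as did ITGB3 and ITGA11. Of 13 integrin chains with a row, 4 were higher and 2 lower, or 30.8% and 15.4%, against 21.8% and 15.9% of all genes.

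Of the names that are not chains, ITGB3BP, a centromere protein, had 1027 counts in the labelled knockdown, against 520, a ratio of 2.12 (1.91 to 2.36) that was also lost under TMM. COL4A3BP, a ceramide transfer protein, had 404 and 630 counts. ITGB1BP2 and ITGBL1 had 19 counts or fewer. The chains alone count 12 higher and 7 lower of 36, or 33.3% and 19.4%, against 21.8% and 15.9% of all genes.

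**Figure D3:**
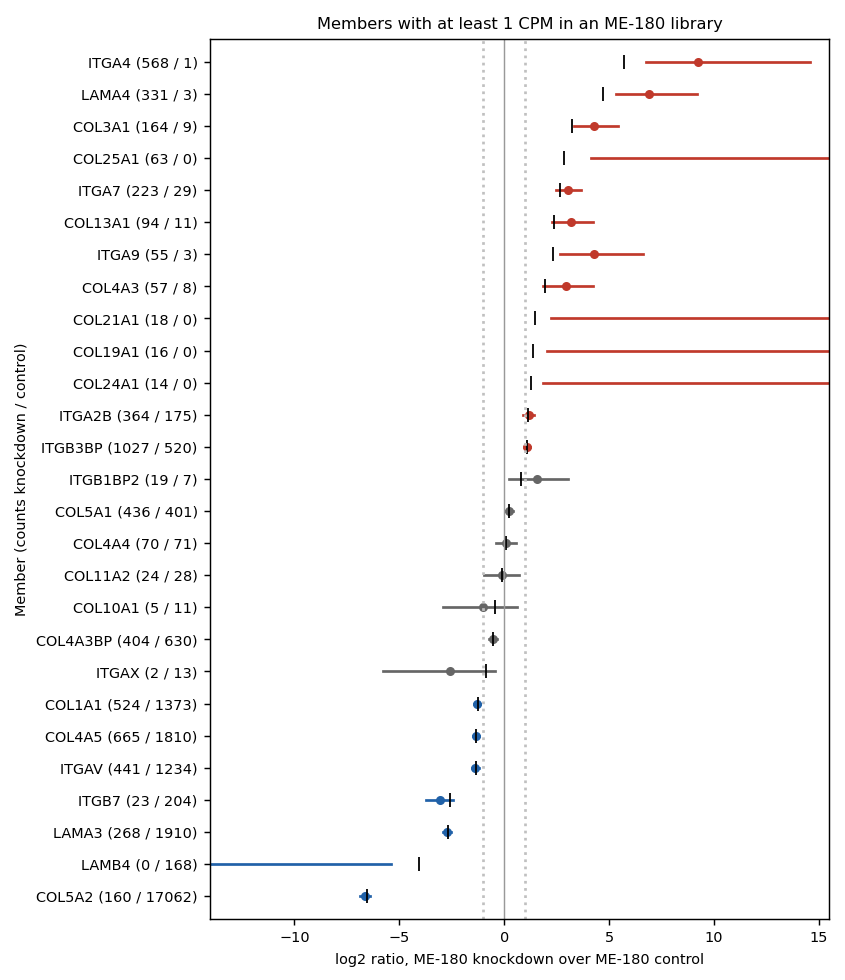
Points and lines give the log2 ratio of the labelled knockdown over the ME-180 control with its 95% counting interval for the 27 members with at least 1 CPM, and black ticks the log2 ratio of CPM + 1 used for calls. Red marks members called higher, blue lower and grey not called, dotted lines the 2-fold limits, and lines without a point reach the edge because 1 library had 0 counts.

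Markers of other cell types did not all move with these genes. In the labelled knockdown, the 7 fibroblast markers with a row, of 10 listed, summed to 28.0 CPM, against 27.9 CPM in the control, with LUM and THY1 at 2 counts or fewer in both. Most of both sums lay in PDPN, with 205 counts, against 245. PDGFRA had 33 counts, against 16, and S100A4 had 14, against 31. PDGFRB, the only fibroblast marker called, had 25 counts, against 0. The 8 leukocyte markers with a row summed to 16.9 CPM, against 58.3 CPM, with CD3E at 0 and 2 counts. Most of that difference lay in CD68, with 38 counts, against 544. The 5 endothelial markers with a row summed to 1.89 CPM, against 15.2 CPM, with CDH5 at 0 and 1 counts. Most of that difference lay in VWF, with 7 counts, against 146, while KDR was called higher, with 12 counts, against 0. In bulk RNA of a cell line, fewer cells with a transcript and less of it per cell cannot be told apart.

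In the authors' deposited table, 19 of the 40 members had an adjusted p below 0.05 in ME-180, 11 of them higher and 8 lower, against 37.8% of all genes by the same transcripts. With 1 library per group, that p rests on no measured spread between replicates.

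The 6 genes left out by the rule were all lower in the labelled knockdown, with log2 ratios of -3.32 or below, as with COL17A1 at 18 counts, against 34700. That list was set by name, and LAMA3 stayed among the members. In SiHa COL17A1 (107 counts with overexpression, against 20) and ITGB4 (204 against 88) were called higher.

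The overexpression comparison asks which genes differ when p63 is raised in SiHa. No member was called in either direction, of 57 with a row, where 0.421% of all 9490 genes were called higher and 0.548% lower (0.969% in either direction). At this background less than 1 call would be found among 57 genes, so the count of 0 says little about the members. Their log2 ratios lay between -0.80 and 0.39, with a median of -0.13, against -0.05 for all genes. A ratio below 0 was found for 41 of 57 members (71.9%) and for 56% of all genes. The 7 squamous markers with a row summed to 9075 CPM with overexpression, against 4212 CPM with the vector. Most of both sums lay in 1 marker. Of the 7, 4 were called higher and 0 lower, and 1 had a log2 ratio below 0. The 8 fibroblast markers summed to 49.6 CPM, against 39.1 CPM, of which S100A4 alone gave 41.0 CPM, against 31.3 CPM. LUM had 40 counts, against 14, and PDPN 28, against 55. In the authors' deposited table, 0 members had an adjusted p below 0.05, against 0.158% of all genes.

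**Figure D4:**
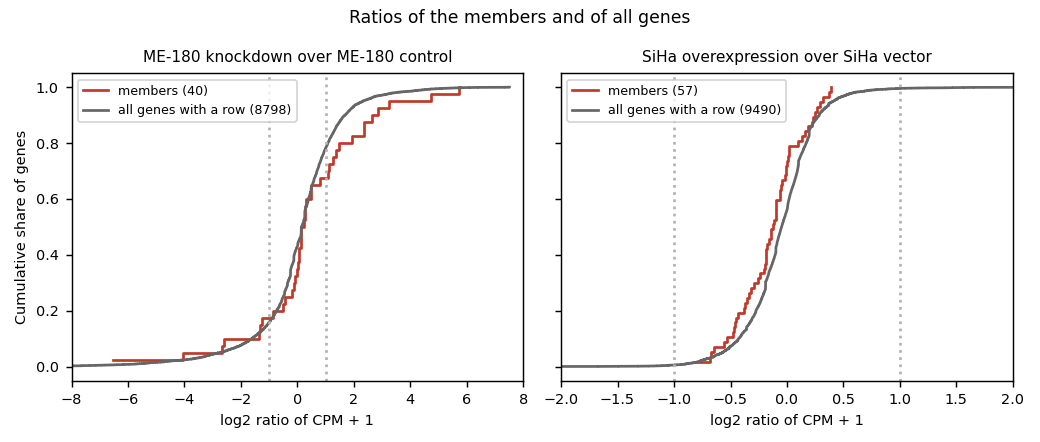
Curves give the cumulative share of members (red) and of all genes with a row (grey) by log2 ratio of CPM + 1, in ME-180 (left) and SiHa (right), with dotted lines at the 2-fold limits. In ME-180 32.5% of members and 21.8% of all genes were called higher, and in SiHa all members lie between -0.80 and 0.39.

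Of the 22 members with at least 100 counts in a SiHa library, the largest shifts were in collagens. COL1A1 had 194 counts with overexpression, against 331 with the vector, a ratio of 0.608 (0.507 to 0.728). COL4A2, a chain of the common type IV collagen of basement membranes, had 376 counts, against 632, a ratio of 0.617 (0.542 to 0.703). COL4A1, its partner, had 50 counts with overexpression, against 75, and COL4A6 had 70, against 105, a ratio of 0.692 (0.504 to 0.945). COL4A3, COL4A4 and COL4A5 had ratios of 0.653 (0.334 to 1.24), 0.768 (0.488 to 1.20) and 0.962 (0.890 to 1.04). All 6 type IV chains thus had ratios below 1, and the intervals of COL4A2 and COL4A6 did not reach 1. COL5A1 had the highest log2 ratio, 0.39, with 2454 counts, against 1937, a ratio of 1.31 (1.24 to 1.40). The beaded filament collagens COL6A1 and COL6A2 had ratios of 0.881 (0.836 to 0.929) and 0.885 (0.811 to 0.966).

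LAMB1, LAMB2 and LAMC1, which lack an ME-180 row, were measured in SiHa. LAMB1 had 2994 counts with overexpression, against 3882 with the vector, a ratio of 0.800 (0.763 to 0.840). LAMB2 and LAMC1, which with LAMB1 complete the common laminin trimers, had 8795 counts, against 10075, and 3692 counts, against 4154, ratios of 0.906 and 0.922. The alpha chains LAMA3 and LAMA4, which lay far apart in ME-180, had 111 counts, against 115, and 135 counts, against 163. A LAMA3 transcript other than the one with the most counts, NM_000227.3, had 74 counts with overexpression, against 45.

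Ratios of the well-covered integrin chains of SiHa lay on both sides of 1. ITGB1, the beta chain shared by most matrix receptors, had 4120 counts with overexpression, against 4564, a ratio of 0.937 (0.898 to 0.977). ITGA5, the fibronectin receptor chain, had 2804 counts, against 3042, and ITGA3, a laminin receptor chain of epithelia, 2532 counts, against 2182, a ratio of 1.20 (1.14 to 1.28). ITGAV had 635 counts, against 837, a ratio of 0.787 (0.709 to 0.874). ITGB5 and ITGB8, beta partners of ITGAV, had 2060 counts, against 2167, and 615 counts, against 570, so ITGAV lay below them in ratio. ITGA2, a collagen receptor chain, had 170 counts, against 178, and ITGAE, the partner of ITGB7 that binds E-cadherin, 1076 against 1154. ITGA4 had 29 counts, against 50, and ITGA7 59, against 89.

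**Figure D5:**
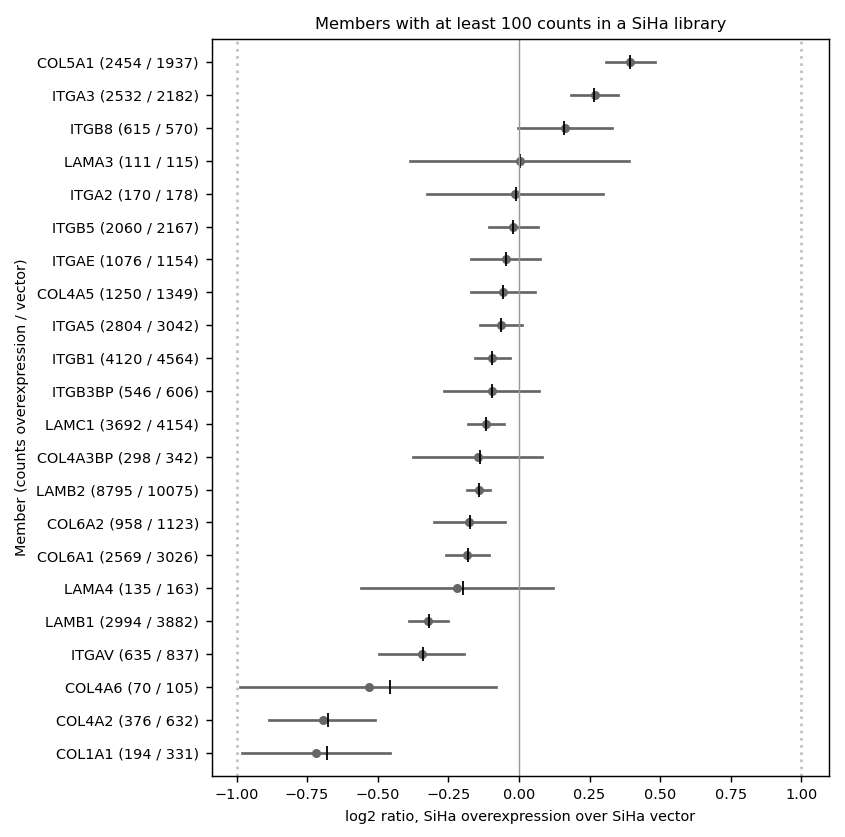
Points and lines give the log2 ratio of SiHa overexpression over SiHa vector with its 95% counting interval for the 22 members with at least 100 counts in a library, and black ticks the log2 ratio of CPM + 1. All 22 lie between -0.68 and 0.39, inside the dotted 2-fold limits, 18 of them below 0.

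The levels in all 4 libraries were set side by side on CPM scaled to the sum of the 13206 transcripts found in both tables, because the thinned rows raise the CPM of the ME-180 table. No test between lines was possible. Of the 32 members in both tables, 18 lay at least 2-fold apart between the labelled knockdown and the ME-180 control, where the median absolute log2 ratio was 1.19 for members and 0.77 for all 7587 genes. Between the labelled knockdown and SiHa vector 15 did, with medians of 0.91 for members and 0.57 for all genes, and 16 did between the labelled knockdown and SiHa overexpression (1.05 and 0.64). Between the ME-180 control and SiHa vector 13 did, with medians of 0.78 and 0.65, and 11 did between the ME-180 control and SiHa overexpression (0.79 and 0.65). Between SiHa overexpression and SiHa vector 0 did, with medians of 0.27 and 0.19. The members' median was above that of all genes in each of the 6 pairs, which share libraries. COL5A2 had 16.0 CPM in the labelled knockdown, 1586 in the ME-180 control, 4.24 in SiHa overexpression and 4.27 in SiHa vector. LAMA3 had 26.8, 178, 11.8 and 11.7 CPM in the same order, and ITGB7 2.30, 19.0, 1.80 and 1.93. For these genes the ME-180 control was the library apart. ITGA4 had 56.7 CPM in the labelled knockdown, 0.0930 in the ME-180 control, 3.07 in SiHa overexpression and 5.09 in SiHa vector, and ITGA9 5.49, 0.279, 0.636 and 0.610. For LAMA4 the ME-180 control was at 0.279 CPM, and the labelled knockdown at 32.3, SiHa overexpression at 14.3 and SiHa vector at 16.6. COL5A1 split by line, with 43.5 and 37.3 CPM in the labelled knockdown and the ME-180 control and 260.0 and 197 CPM in SiHa overexpression and vector.

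Genes that modify, bind or transmit from these proteins were read from lists of related genes. Of 15 collagen maturation genes with an ME-180 row, 3 were higher and 5 lower in the labelled knockdown. LEPREL1 (log2 ratio -6.87) and LEPRE1 (1.97), both collagen prolyl 3-hydroxylases, went opposite ways, and the crosslinking enzyme LOX was at -2.89 and the procollagen protease BMP1 at -2.18. Of 9 basement membrane partners, 1 was higher, SMOC1 (6.38), and 3 were lower, the laminin receptor BCAM (-5.06), the integrin ligand NPNT (-4.75) and TINAGL1 (-5.98). Of 12 other integrin ligands, 3 were higher and 4 lower, with the fibrillin FBN1 at 4.07, fibronectin FN1 at 2.21, ICAM1 at -2.29 and LTBP1 at -2.28.

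Adhesion plaque genes and proteases leaned lower. Of 18 focal adhesion genes, 2 were higher and 5 lower, or 8 lower under TMM, with the parvin PARVB at 4.57, the caveolin CAV1 at -4.49, TGFB1I1 at -2.98 and the actin crosslinker FLNA at -2.38. Of 10 matrix proteases and inhibitors, 0 were higher and 5 lower, with the collagenase MMP13 at 0 counts, against 266, ADAM10 at -1.96, CTSK at -1.25 and TIMP3 at -1.02. The background for the counts of these lists in ME-180 is the 21.8% higher and 15.9% lower of all genes. For the count under TMM it is 1503 higher and 1653 lower of 8798 genes.

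In SiHa, 1 of the genes on these 5 lists was called higher and 1 lower, both among the integrin ligands and both under 100 counts, named here after their values were seen. POSTN had 20 counts with overexpression, against 1, and FN1 had 33, against 87. The largest log2 ratios among genes with at least 100 counts were SMOC1 at -0.87, TINAGL1 at 0.81, FBN2 at -0.77 and FBN1 at -0.70. LEPREL1 was at 0.60, CTSK at -0.41 and LIMS1, a focal adhesion adaptor, at -0.48.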

How the data were processed

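RNA was measured in 4 libraries, 1 per group, and TRIzol was used for extraction, per the labels' protocols. The submitters' processing notes name TopHat, Cufflinks, DESeq2 and hg19 without roles. Neither the read counter nor the strand setting was given in these sources. What the authors deposited were whole-number counts per RefSeq transcript, a log2 ratio and p-values, of which only the adjusted p was read. Whether a read was counted for more than 1 transcript of a gene is not stated. Date-like gene names (32 and 31 rows) were replaced through the RefSeq accession, or kept as the accession where RefSeq had no match.

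Counts were scaled to CPM by the table total, and 1 transcript stood for each gene, the one highest in CPM over both libraries. Ratios used a pseudocount of 1, and calls a 2-fold difference with at least 1 CPM in either library. Genes at 0 were set to 3 counts for folds. Named genes were members with a call or, in SiHa, the 10 largest ratios, at 100 counts or more, the highest member of each role group, and up to 4 genes per related list; called members under 100 counts were named in addition, after their values were seen. No gene was tested, since 1 library per group allows none. The members, lists and rules were chosen with earlier results of these data known. The calling rule was tested on simulated data. Scaling was varied with edgeR 4.0.16 and DESeq2 1.42.0. The counts cover 10046579 to 14207637 per library, and intervals cover counting error only. The values of 1 member and 1 marker are not reported here. Peak positions on hg19 were not used, because the annotation at hand is of another build.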

Additional observations from a re-analysis of the deposited data

How the results depend on the processing

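No paired analysis was possible because each group is 1 library. The count of members higher in the labelled knockdown, 13, was 7 with a pseudocount of 5 CPM and 6 with a floor of 10 CPM. A larger pseudocount shrinks ratios, most at low levels, and a higher floor leaves low genes out. It was 11 with TMM or median-of-ratios scaling and 14 with a pseudocount of 0.1. The count lower was 7 or 8 under all alternatives. The median log2 ratio of members above 1 CPM in ME-180, 0.81, was 0.18 with no floor and -0.53 with a floor of 10 CPM. The medians of all genes were 0.28, 0.14 and 0.33 in the same order. In SiHa the 0 calls became 1 lower, COL25A1, with a pseudocount of 0.1, and stayed at 0 otherwise. Over all pairs of a single gene and an alternative, 31 values moved beyond counting error and 273 did not, and no called gene changed direction. Some of the 273 could not move. Leaving out names that are no chain changes no chain's value, and summing or taking the median of transcripts changes nothing for genes with 1 transcript. Counts of all genes in ME-180, 1914 higher and 1400 lower of 8798, were 1503 and 1653 with TMM. They were 1272 and 918 with a pseudocount of 5 CPM, and 1366 and 873 with a floor of 10 CPM. With that floor the members' share called higher, 6 of 40, was close to that of all genes. Their share called lower, 7 of 40, was above that of all genes. Members without a row cannot be read.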
